A study of Mus musculus with 6 samples.

Results

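The miR-25/92 seed family of the mouse comprises the miRNAs whose bases 2 to 8, the seed, read AUUGCAC. Members were taken by that seed, without regard to their levels. Of the 1364 miRNAs with at least 1 count, 1089 had a reference sequence in which the seed could be read. Among these, 5 were members: mmu-miR-25-3p, mmu-miR-32-5p, mmu-miR-92a-3p, mmu-miR-92b-3p and mmu-miR-363-3p. The libraries were small RNA sequencing libraries of the nucleus accumbens (NAc), a ventral striatal region of the reward circuit, from male C57BL/6N mice of 7 to 8 weeks. Mice of the morphine group received 10 mg/kg morphine by intraperitoneal injection during 6 days of conditioned place preference (CPP) training, in which a chamber is paired with the drug, and mice of the saline group received saline under the same schedule. The CPP test took place on day 7 and NAc tissue was taken 0.5 h after it, so both groups had been conditioned, handled and tested. Each group had 3 libraries. The sample records describe 6 mice and 3 samples per group while a legend of the study names 1 mouse per library, so whether a library pools mice is not settled, and the p-values below measure the spread between these libraries.

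A mature miRNA guides an Argonaute protein to messenger RNAs that pair with its seed, so miRNAs that share a seed can recognise overlapping sets of targets and are often considered together as a pool. The miR-25/92 family is encoded at several places in the genome. miR-92a arises from the miR-17-92 cluster, known for its part in proliferation and lymphoma, and from the related cluster on the X chromosome that also holds miR-363. miR-25 arises from the miR-106b-25 cluster in the gene of the replication helicase subunit Mcm7, whereas miR-32 and miR-92b are made from hairpins of their own. miR-92b is known from neural stem cells and the developing cortex, and transcripts of the cell cycle inhibitor Cdkn1c and of the pro-apoptotic gene Bcl2l11 are among the known targets of the family.

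The mature sequences, from RefSeq with the GRCm38.p6 assembly, are shown because the members share the seed and differ in the rest of the molecule. Capitals mark the seed, and each sequence runs 5′ to 3′.
mmu-miR-25-3p: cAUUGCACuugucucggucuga
mmu-miR-32-5p: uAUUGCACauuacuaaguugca
mmu-miR-92a-3p: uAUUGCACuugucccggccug
mmu-miR-92b-3p: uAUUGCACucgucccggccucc
mmu-miR-363-3p: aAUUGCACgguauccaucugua
Counted from 1 at the 5′ end, mmu-miR-92b-3p differed from mmu-miR-92a-3p by the substitutions U10C and G21C, with the base of mmu-miR-92a-3p given first, and carried 1 more base at its 3′ end. mmu-miR-25-3p differed from mmu-miR-92a-3p by U1C, C14U and C18U. The other two members were more distant, with 10 differences over 21 compared bases for mmu-miR-32-5p and 11 for mmu-miR-363-3p. The GC content of the mature sequence ran from 31.8% in mmu-miR-32-5p through 40.9% in mmu-miR-363-3p, 50% in mmu-miR-25-3p and 57.1% in mmu-miR-92a-3p to 63.6% in mmu-miR-92b-3p. How the authors assigned a read that matches more than 1 member is not given in the sources used here, and an exchange of reads between mmu-miR-92a-3p and mmu-miR-92b-3p was not tested. Among the reference's mature sequences 6 names carried the seed, and the sixth, mmu-miR-367-3p, was not among the miRNAs listed with counts.

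The hairpins lie apart in GRCm38. Mir92b is at chromosome 3 from 89227116 to 89227198 on the minus strand, outside annotated genes and with no other miRNA gene within 10 kb. Mir32 is at chromosome 4 from 56895229 to 56895298 on the minus strand, in an intron of Tmem245. Mir25 is at chromosome 5 from 138165321 to 138165404 on the minus strand, within an exon of an annotated Mcm7 transcript, with Mir93 and Mir106b nearby. Mir92-1 is at chromosome 14 from 115044427 to 115044506 on the plus strand, in an exon of a transcript of the non-coding host gene Mir17hg. Mir92-2, at chromosome X from 52741838 to 52741928, and Mir363, from 52741693 to 52741767 on the same minus strand, are neighbours in an intergenic cluster. The mature mmu-miR-92a-3p is the same from both of its hairpins, so its count cannot be divided between chromosomes 14 and X. The hairpin of mmu-miR-92b-3p, the member with the most counts in the saline group, is shown with its 5p and then its 3p mature arm in capitals.
Mir92b hairpin: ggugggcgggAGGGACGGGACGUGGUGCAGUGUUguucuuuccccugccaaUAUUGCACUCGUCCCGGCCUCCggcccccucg

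Total counts were 4183333 to 8335096 in the saline libraries and 7290936 to 9842050 in the morphine libraries. Levels are given as CPM, counts per M counts of a library after TMM scaling, which evens out differences in composition between libraries, and 3 counts corresponded to 0.315 to 0.549 CPM. Such limits cover counting error only, since PCR copies without molecular identifiers are not independent molecules. Saline replicate 2 stood apart from its group. Over 899 miRNAs its Spearman correlation was 0.869 and 0.874 with the other saline libraries and 0.907 to 0.926 with the morphine libraries, whereas saline replicates 1 and 3 correlated at 0.952. The neuronal marker miRNAs were listed in every library and summed to 130259 to 272707 CPM in saline and 179016 to 207654 CPM in morphine libraries, with 1 of 5 called lower, mmu-miR-124-3p. In the lists of other cell types 1 miRNA each was called, against 19.4% of all miRNAs, and carried most of the difference in the sums of 4 lists, while the other miRNAs of those lists were not called. The part of these cells in the results below was not tested. The 2 endothelial miRNAs summed to 1485 to 5002 CPM in saline and 10984 to 16264 CPM in morphine, with 1 of 2 called higher, mmu-miR-126a-3p. The 4 myeloid miRNAs summed to 155 to 272 and 854 to 1069 CPM, with 1 of 4 called higher, mmu-miR-146a-5p. The 4 erythroid miRNAs summed to 216 to 312 and 360 to 572 CPM, with 1 of 4 called higher, mmu-miR-451a. The 4 ciliated and choroid plexus miRNAs summed to 1945 to 2766 and 940 to 992 CPM, with 1 of 4 called lower, mmu-miR-204-5p. The 3 oligodendrocyte miRNAs summed to 1820 to 1903 and 1572 to 1963 CPM, with 1 of 3 called lower. No marker was at 0 in all libraries.

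The comparison of morphine with saline asked which miRNAs of the NAc differ after conditioning with the opioid. In the miR-25/92 family the members moved in opposite directions. mmu-miR-92b-3p was 4.65-fold lower in the morphine group, mmu-miR-25-3p was 2.47-fold higher and mmu-miR-363-3p, a rare member, was 4.36-fold higher. The groups of mmu-miR-92a-3p and mmu-miR-32-5p overlapped and neither passed the test. Those of mmu-miR-92b-3p also overlapped, through saline replicate 2 at 297 CPM. By the criteria of the study, an absolute log2 fold change of at least 0.58 with an unadjusted p of at most 0.05, 3 of 5 members were called in edgeR's quasi-likelihood test, 2 higher and 1 lower. Over all 1364 miRNAs the same criteria called 19.4%, with 9.68% higher and 9.68% lower. At a Benjamini-Hochberg adjusted p under 0.05, 1 of 5 members passed against 5.21% of all miRNAs, and the values of 2 of 5 did not overlap between the groups against 22.1% of all miRNAs. The median log2 fold change of the members was 0.65, that of all miRNAs -0.15. With 5 members this median is the value of mmu-miR-32-5p, which was not called. The log2 fold change of the members' summed level was -0.92, with overlapping groups. In bulk tissue, fewer cells that carry a miRNA and less of it per cell cannot be told apart.

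**Figure D1:**
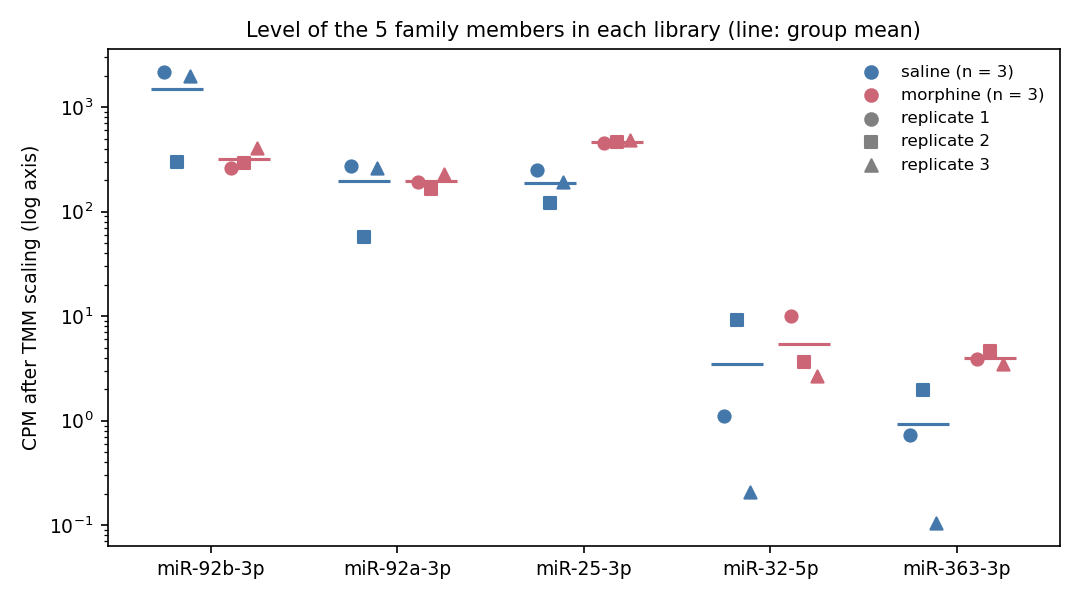
Level of each member in each library, in CPM after TMM scaling on a log axis, with a point per library (shape for the replicate, colour for the group, n = 3 each) and a line for the group mean. The morphine libraries of mmu-miR-25-3p (458 to 487 CPM) and mmu-miR-363-3p (3.45 to 4.69 CPM) sit above every saline library, whereas saline replicate 2 of mmu-miR-92b-3p (297 CPM) lies among the morphine libraries (262 to 403 CPM).

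mmu-miR-92b-3p, the GC-rich member without cluster partners, was the most abundant member in saline. Its level was 2175, 297 and 1969 CPM in saline replicates 1, 2 and 3, from 11885, 1981 and 18769 counts. It was 262, 290 and 403 CPM in morphine replicates 1, 2 and 3, from 2369, 1979 and 2568 counts. The morphine libraries lay close together, and of the saline libraries 1 and 3 were far above them while saline replicate 2 fell inside the morphine range. The means were 1480 ± 1030 CPM (SD, n = 3) and 318 ± 74.8 CPM (SD, n = 3). The log2 fold change was -2.22 ± 0.56 (SE; 95% interval -3.38 to -1.06), with an adjusted p of 0.0327 in edgeR's quasi-likelihood test. Leaving out saline replicate 2 gave -2.70, and leaving out saline replicate 1 gave -1.75. It was -1.35, with an edgeR adjusted p of 0.0103, when each library's trend with GC content was taken out, and without morphine replicate 1 the edgeR adjusted p was 0.343. When miRNAs with low counts were left out, the edgeR adjusted p was 0.0829 (filterByExpr) or 0.0932 (at least 10 counts). With edgeR's exact test the adjusted p was 0.0550. Over the 18 alternative settings mmu-miR-92b-3p met the criteria of the study in 18 and had an adjusted p under 0.05 in 11. The edgeR or DESeq2 adjusted p-values ran from 1.08e-25 to 0.343. The lowest was that without saline replicate 2, a setting in which 37% of all miRNAs were called.

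mmu-miR-25-3p, made from the Mcm7 locus, changed the other way. It stood at 253, 121 and 193 CPM in saline replicates 1, 2 and 3, from 1382, 809 and 1840 counts. In morphine replicates 1, 2 and 3 it stood at 458, 459 and 487 CPM, from 4137, 3135 and 3099 counts. Every morphine library was above every saline library, and the morphine values spread less than the saline ones, with means of 468 ± 16.3 and 189 ± 65.9 CPM (SD, n = 3 each). The log2 fold change was 1.31 ± 0.46 (SE; 95% interval 0.35 to 2.27), with an unadjusted p of 0.0110 and an adjusted p of 0.10 in edgeR's quasi-likelihood test. It met the criteria of the study in 16 of 18 alternative settings. The call was lost with scaling by library totals, where the log2 fold change was 0.88, and without morphine replicate 3, where it was 1.28.

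mmu-miR-363-3p, from the X-linked cluster, was detected in all libraries at low counts. There were 4, 13 and 1 counts in saline replicates 1, 2 and 3 and 35, 32 and 22 counts in morphine replicates 1, 2 and 3. On the scaled level these were 0.732, 1.95 and 0.105 CPM against 3.87, 4.69 and 3.45 CPM. The lowest morphine value was thus above the highest saline value, although saline replicate 3 was under the level that 3 counts can show. The log2 fold change was 2.12 ± 0.81 (SE; 95% interval 0.45 to 3.80), with an unadjusted p of 0.0162 and an adjusted p of 0.132 in edgeR's quasi-likelihood test. Leaving out saline replicate 3 gave 1.64 and leaving out morphine replicate 1 gave 2.26, and neither met the criteria of the study. When saline replicate 2 was left out it was 3.44.

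mmu-miR-92a-3p, the member encoded at both miR-17-92 type clusters, had 271, 57.4 and 263 CPM in saline replicates 1, 2 and 3. It had 194, 164 and 228 CPM in morphine replicates 1, 2 and 3, between the low saline library and the other saline libraries. The means were 197 ± 121 and 195 ± 32.3 CPM (SD, n = 3 each), and the log2 fold change was -0.01 ± 0.53 (SE). Its 95% interval of -1.12 to 1.09 leaves room for a change of the size of 1 log2 unit in either direction, and the sign of the fold change turned with the GC correction, where it was 0.43. mmu-miR-32-5p, made from the Tmem245 intron, had 6, 61 and 2 counts in saline and 90, 25 and 17 counts in morphine replicates 1, 2 and 3. Saline replicate 2, which was the lowest saline library for mmu-miR-25-3p, mmu-miR-92a-3p and mmu-miR-92b-3p, was the highest for mmu-miR-32-5p and mmu-miR-363-3p. The log2 fold change of mmu-miR-32-5p was 0.65 ± 0.88 (SE; 95% interval -1.16 to 2.47), with an edgeR adjusted p of 0.678. That value rested on single libraries. It was 3.23 without saline replicate 2, with an edgeR adjusted p of 2.78e-06, and 0.0026 without morphine replicate 1, and over the 18 alternatives the adjusted p ran from 2.78e-06 to 0.9999 with edgeR or DESeq2.

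**Figure D2:**
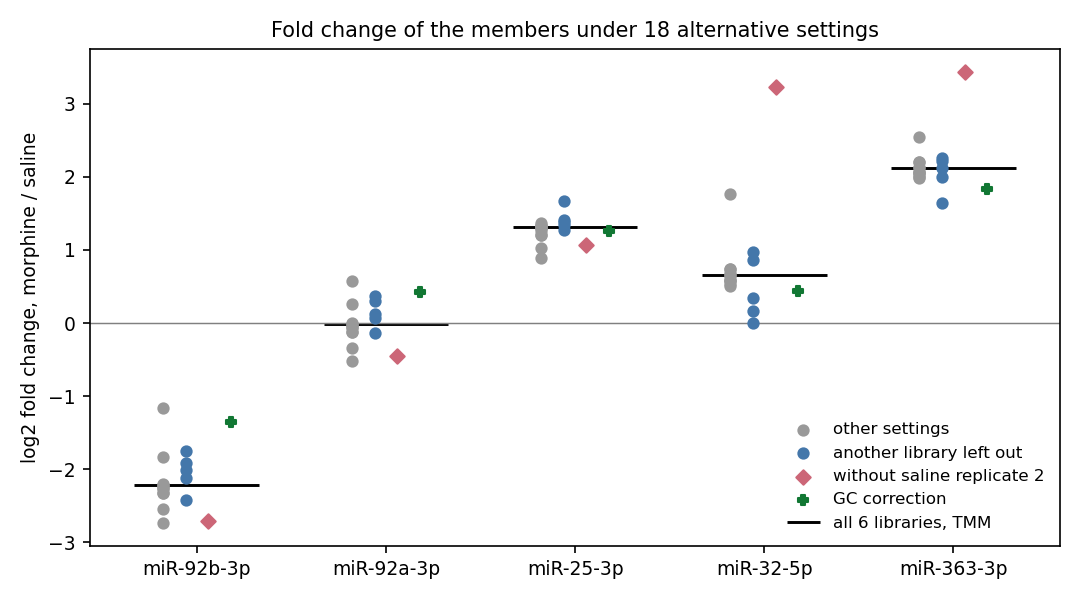
Log2 fold change of each member, morphine against saline, with all 6 libraries and TMM (black line) and under 18 alternative settings (points, with the setting without saline replicate 2 as diamonds and the GC correction as crosses). mmu-miR-92b-3p stays between -2.74 and -1.17 and mmu-miR-25-3p between 0.88 and 1.67, whereas mmu-miR-92a-3p lies on both sides of 0.

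The make-up of the family differed between the groups, where the members, of 21 or 22 bases, were compared by counts with no term for length. mmu-miR-92b-3p held 80.5%, 61.0% and 81.2% of the family's counts in saline replicates 1, 2 and 3 and 28.3%, 31.5% and 35.9% in morphine replicates 1, 2 and 3. This share does not depend on how libraries are scaled, and here saline replicate 2 was on the side of its group. mmu-miR-25-3p held 9.37%, 24.9% and 7.96% in saline and 49.4%, 49.9% and 43.3% in morphine, where it was the leading member of every library. mmu-miR-92a-3p held 10.02%, 11.8% and 10.9% in saline and 20.9%, 17.8% and 20.3% in morphine. Because shares sum to a whole, a fall of 1 member raises the others, and the shares alone do not tell which member moved. The share of mmu-miR-32-5p and that of mmu-miR-363-3p was at most 1.88% in each library.

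**Figure D3:**
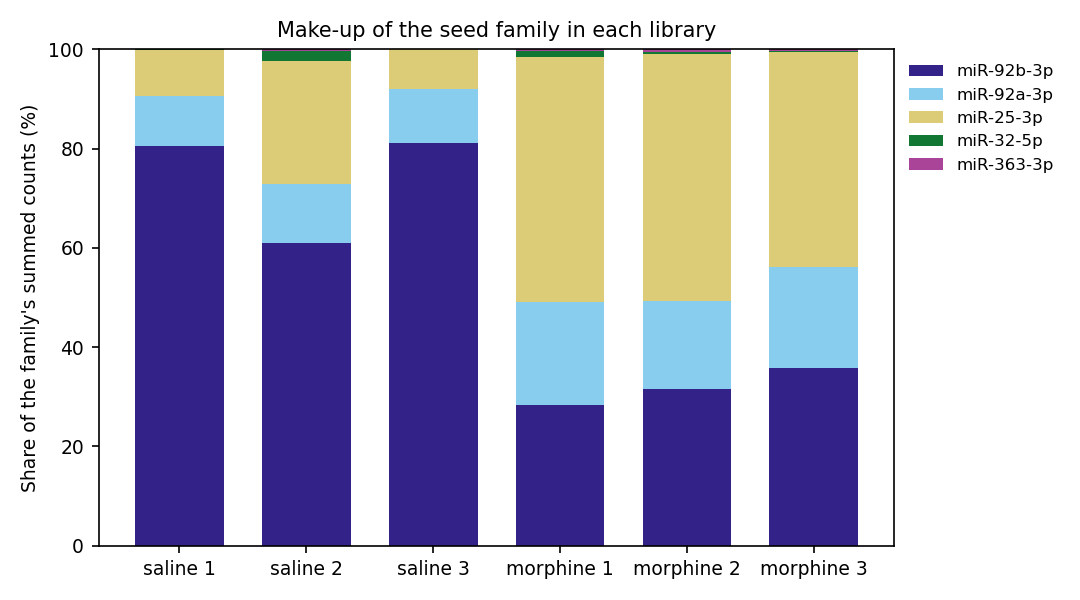
Share of the counts of the miR-25/92 family held by each member in each of the 6 libraries, in percent, as stacked bars that sum to the whole family. mmu-miR-92b-3p fills 61.0% to 81.2% of the saline bars and 28.3% to 35.9% of the morphine bars, while mmu-miR-25-3p fills 7.96% to 24.9% and 43.3% to 49.9%.

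The summed level of the 5 members was 2701, 487 and 2425 CPM in saline replicates 1, 2 and 3 and 927, 921 and 1124 CPM in morphine replicates 1, 2 and 3. The morphine libraries fell between saline replicate 2 and the other saline libraries, so the groups overlapped. The means were 1871 ± 1207 and 991 ± 115 CPM (SD, n = 3 each). Grouping the 1089 miRNAs with a reference sequence by their seed gave 938 seeds, among which AUUGCAC ranked 36, 84 and 43 by summed level in saline and 62, 61 and 61 in morphine libraries. Ranked singly, mmu-miR-92b-3p stood at place 59, 152 and 67 in saline and 156, 139 and 130 in morphine, and mmu-miR-25-3p at 131, 200 and 156 and then 122, 118 and 117.

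A ratio of 2 members within a library needs no scaling between libraries and compares their changes directly, so the log2 ratio was taken for all 10 pairs, with 0.5 added to each count. In 4 of 10 pairs the ratios of the groups did not overlap. The log2 ratio of mmu-miR-92a-3p to mmu-miR-92b-3p, the pair with the nearest sequences, was -3.01, -2.37 and -2.90 in saline and -0.44, -0.82 and -0.82 in morphine replicates 1, 2 and 3. It was thus 2.06 higher in morphine, with saline replicate 2 among its group. The log2 ratio of mmu-miR-25-3p to mmu-miR-92b-3p was -3.10, -1.29 and -3.35 in saline and 0.80, 0.66 and 0.27 in morphine, so that the order of these members turned from one group to the other. That of mmu-miR-25-3p to mmu-miR-92a-3p was 1.10 higher in morphine, but the groups nearly touched, with saline replicate 2 at 1.08 and morphine replicate 3 at 1.09. That of mmu-miR-92b-3p to mmu-miR-363-3p was different by -4.45. Each of these 4 differences had p = 0.1 in the exact two-sided permutation test, the smallest that 3 libraries against 3 can give, and 0.25 after adjustment over the 10 pairs. The other 6 pairs each include mmu-miR-32-5p or mmu-miR-363-3p at low counts, and their ratios overlapped.

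The fold changes of all miRNAs varied with base composition, in which the members differ. Over 366 miRNAs with a reference sequence and at least 300 counts in total, log2 fold change and GC content of the mature sequence correlated at r = -0.26, across miRNAs, which are not independent replicates. The median log2 fold change was 0.53 for 92 miRNAs of 35% to under 45% GC and -0.46 for 67 miRNAs of 55% to under 65% GC. It was -0.21 for 151 miRNAs of 45% to under 55% and -1.09 for 29 miRNAs of 65% or more. The fall was not steady, since the median was 0.16 for 27 miRNAs under 35%. mmu-miR-92b-3p, at 63.6% GC, was below the median of its range and mmu-miR-363-3p, at 40.9%, was above that of its own. However, mmu-miR-363-3p and mmu-miR-32-5p had under 300 counts in total, so they were not among the 366 miRNAs that gave the medians and the trend. With the GC trend taken out, r was 0.04 and the log2 fold changes were -1.35 for mmu-miR-92b-3p, 0.43 for mmu-miR-92a-3p, 1.26 for mmu-miR-25-3p, 1.84 for mmu-miR-363-3p and 0.44 for mmu-miR-32-5p. The 3 called members kept their direction and their call, and in this fit mmu-miR-25-3p had an edgeR adjusted p of 0.0248. Over its alternatives with edgeR or DESeq2 the adjusted p ran from 0.000508, without saline replicate 2, to 0.352.

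**Figure D4:**
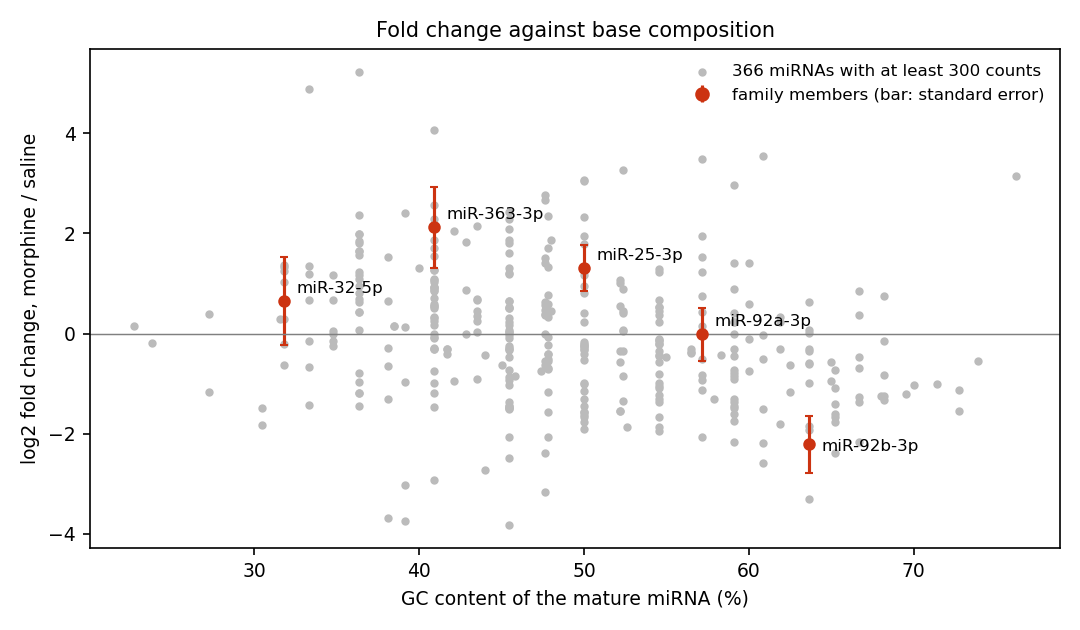
Log2 fold change, morphine against saline, against the GC content of the mature sequence in percent, with 366 miRNAs of at least 300 counts in grey and the 5 members named in red with their standard errors. mmu-miR-92b-3p lies at 63.6% GC and -2.22, and mmu-miR-92a-3p at 57.1% GC and -0.01. With the GC trend taken out their values were -1.35 and 0.43, and the part of GC content in their difference was not tested.

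Each hairpin gives a second strand, the passenger arm, which does not carry the seed. Of 6 passenger arms 5 were listed with counts, and 3 of 5 met the criteria of the study, 2 higher and 1 lower, against 19.4% of all miRNAs. When only miRNAs with at least 10 counts in total were fitted, 2 arms were called, against 25.6% of 899 miRNAs. At an adjusted p under 0.05 there were 0 of 5 in edgeR's quasi-likelihood test, against 5.21% of all miRNAs, 0 with edgeR's exact test and 0 with DESeq2, which gave an adjusted p for 3 of the 5, while 3 of 5 had an unadjusted p under 0.05. mmu-miR-92b-5p, the partner of mmu-miR-92b-3p, had 770, 256 and 1292 counts in saline and 371, 363 and 295 counts in morphine replicates 1, 2 and 3. As with its 3p arm, the saline replicate 2 value lay with the morphine libraries, at 38.4 CPM. Its log2 fold change was -1.16 ± 0.53 (SE), with an unadjusted p of 0.0414 and an adjusted p of 0.240 in edgeR's test. It was called in only 8 of 18 alternatives. The call was lost without any single library other than saline replicate 2 and under the GC correction, where the log2 fold change was -0.43. Edging out low counts with filterByExpr, edgeR's exact test and a block for the replicate number also lost it. mmu-miR-32-3p had 0, 6 and 0 counts in saline and 14, 12 and 24 in morphine, with no overlap and a log2 fold change of 2.94 ± 1.09 (SE; edgeR adjusted p = 0.10). All saline counts were in replicate 2, and the fitted value was 2.35 without saline replicate 3. Without saline replicate 2 the saline group is at 0, and the fitted value of 7.13 then depends on the prior count and is no bound. The third call, mmu-miR-363-5p, rested on 12 counts of which 11 were in morphine replicate 1, and was lost without that library.

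The ratio of the arms shows whether both strands of a hairpin changed alike. For the miR-92b hairpin the log2 ratio of 3p to 5p was 3.95, 2.95 and 3.86 in saline and 2.67, 2.45 and 3.12 in morphine replicates 1, 2 and 3. The difference of -0.84 was within overlapping groups (exact two-sided permutation test, p = 0.2, adjusted over 5 hairpins 0.333). The difference was 2.48 for the miR-25 hairpin and -2.03 for the miR-32 hairpin, also with overlapping groups. mmu-miR-25-5p, at 1 to 21 counts per library, had a log2 fold change of -1.53 and was not called. In none of the 5 hairpins were the arm ratios of the groups apart, and in the other 4 hairpins the passenger arm had at most 24 counts in any library.

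The primary transcripts that carry miR-25, miR-92a and miR-363 also carry other miRNAs, and these were examined as 21 cluster mates, of which 15 were listed. Of these 15, 5 were called, each at an unadjusted p under 0.05, and all 5 were lower in the morphine group, against 9.68% of all miRNAs called lower. With filterByExpr, 90 of 594 miRNAs were called lower, and 4 mates were called. The values of 4 of 15 did not overlap between the groups, near the 22.1% of all miRNAs. At an adjusted p under 0.05 there were 0 of 15 in edgeR's quasi-likelihood test, against 5.21% of all miRNAs, and 0 with edgeR's exact test. DESeq2 gave an adjusted p for 11 of the 15 and called 2 of them, mmu-miR-93-5p and mmu-miR-19a-3p, where it called 156 of 1364 miRNAs in all, so this count is near that of all miRNAs. Their median log2 fold change was -0.01. No mate was called higher with all 6 libraries. Without saline replicate 2, where 37% of all miRNAs were called, 7 mates were called, 3 of them higher (mmu-miR-17-5p, mmu-miR-20a-5p and mmu-miR-106b-5p) and 4 lower.

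In the miR-106b-25 cluster the mate with the most reads in the saline group was mmu-miR-93-5p, which belongs to the miR-17 seed family. Its level was 242, 288 and 278 CPM in saline replicates 1, 2 and 3, a narrow range that included saline replicate 2. In morphine replicates 1, 2 and 3 it was 123, 74.6 and 77.7 CPM. The log2 fold change was -1.55 ± 0.47 (SE; edgeR adjusted p = 0.0511), and it met the criteria of the study in 18 of 18 alternatives. With edgeR or DESeq2 the adjusted p ran from 1.13e-06, without saline replicate 2, to 0.311. The other strand, mmu-miR-93-3p, had 35, 13 and 51 counts in saline and 13, 8 and 10 in morphine and a log2 fold change of -1.70 ± 0.70 (SE; edgeR adjusted p = 0.169). Its call was lost in 8 of 18 alternatives, among them the GC correction, where it was -1.19, and the removal of any single library other than saline replicate 2, where it was -1.79 to -1.30. mmu-miR-106b-5p and mmu-miR-106b-3p were not called, with log2 fold changes of -0.01 ± 0.66 and -0.31 ± 0.52 (SE), and without saline replicate 2 both were called, in opposite directions, at 1.47 and -0.72.

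The ratio of mmu-miR-25-3p to each of these 4 mates was taken after the values above had been seen. The log2 ratio of mmu-miR-25-3p to mmu-miR-93-5p was 0.07, -1.25 and -0.53 in saline and 1.89, 2.62 and 2.65 in morphine replicates 1, 2 and 3. mmu-miR-25-3p thus had like or fewer counts than its neighbour in saline, with the fewest by comparison in saline replicate 2, and more in every morphine library. Their GC contents were 50% and 52.2%. The ratios to mmu-miR-93-3p and mmu-miR-106b-3p were also apart, by 2.88 and 1.43, and that to mmu-miR-106b-5p overlapped. Each of the 3 had p = 0.1 in the exact two-sided permutation test, the smallest possible, and 0.133 adjusted over the 4 ratios.

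In the miR-17-92 cluster 3 of 9 listed mates were called, all lower, against 9.68% of all miRNAs called lower, and 2 of these calls rested on saline replicate 2. mmu-miR-17-3p had 7, 19 and 30 counts in saline and 6, 1 and 6 in morphine, with a log2 fold change of -2.04 ± 0.83 (SE; edgeR adjusted p = 0.160). The call of mmu-miR-17-3p was lost without saline replicate 3, morphine replicate 1 or morphine replicate 2, where the log2 fold change was -1.73, -2.06 and -1.57. mmu-miR-19a-3p had 3, 16 and 1 counts in saline and 0 in every morphine library. Its saline mean of 1.02 CPM was 2.46-fold the level of 3 counts in the morphine libraries. That mean rested on saline replicate 2, at 2.40 CPM. Saline replicates 1 and 3 were themselves not above 3 counts, so the value is no bound on the difference. The call of mmu-miR-19a-3p was lost without saline replicate 2. mmu-miR-19b-3p had 12, 294 and 17 counts in saline and 22, 9 and 13 in morphine, so its log2 fold change of -3.04 came from saline replicate 2 and was -0.02 without it. mmu-miR-17-5p and mmu-miR-20a-5p, the better-covered strands of the cluster, had log2 fold changes of 0.59 ± 0.58 and 0.13 ± 0.67 (SE) and were not called, whereas without saline replicate 2 they were 1.23 and 1.67 and both were called higher. In the cluster on the X chromosome 3 of 8 mates were listed, and apart from mmu-miR-19b-3p, which is shared with chromosome 14, they had at most 11 counts in any library.

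**Figure D5:**
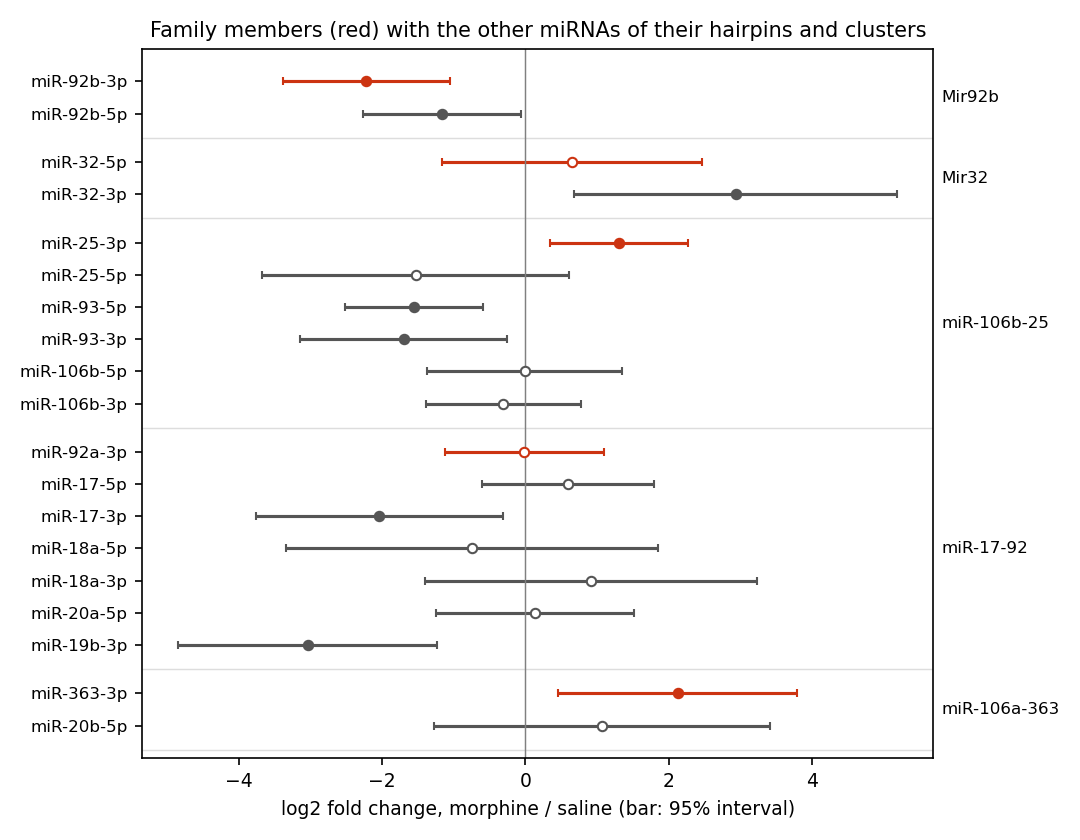
Log2 fold change with its 95% interval, morphine against saline, for the miRNAs of the Mir92b and Mir32 hairpins and of the miR-106b-25, miR-17-92 and miR-106a-363 clusters, leaving out the rarest, with members of the family in red, filled points for those called and open points for the others. mmu-miR-92a-3p and mmu-miR-19b-3p, which come from more than 1 cluster, are drawn once. In the miR-106b-25 cluster mmu-miR-25-3p (1.31) is on the opposite side of 0 from mmu-miR-93-5p (-1.55) and mmu-miR-93-3p (-1.70).

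The miRNAs whose levels ran most like each member were sought among 401 miRNAs with a mean of at least 10 CPM, by Pearson's correlation of log2(CPM + 1) over the 6 libraries, as a description that includes the group difference and the deviation of saline replicate 2. For mmu-miR-92b-3p they were mmu-miR-412-5p (r = 0.990) and mmu-miR-129-2-3p (r = 0.987). For mmu-miR-25-3p they were mmu-miR-187-3p (r = 0.977) and mmu-miR-1947-5p (r = 0.946). mmu-miR-92a-3p ran most like mmu-miR-574-3p (r = 0.972) and mmu-let-7d-3p (r = 0.969). mmu-miR-32-5p ran most like mmu-miR-20a-5p (r = 0.967), a mate of miR-92a, and mmu-miR-190a-5p (r = 0.966). For mmu-miR-363-3p they were mmu-miR-467a-3p and mmu-miR-467d-3p (r = 0.990 for both), whose counts were equal in every library.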

How the data were processed

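NAc small RNA libraries from 3 saline and 3 morphine samples were analysed, grouped by the sample records. Per the methods, reads of 15 to 35 nt from 3 µg of total RNA were filtered for adapters and low quality and against other non-coding RNAs with Bowtie, then compared with miRBase. The authors deposited raw counts per mature miRNA, used here as they stand. The authors also deposited TPM values, which equalled the counts per M counts of a library and entered no test. The genome build, the miRBase release and the treatment of reads matching several miRNAs are not given in the sources used here.

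All 1364 miRNAs with at least 1 count were fitted with the quasi-likelihood test of edgeR 4.0.16 (TMM factors, R 4.3.3, no covariate), with Benjamini-Hochberg adjustment over all of them. Standard errors and 95% intervals came from that model. The fit was also run on simulated counts, drawn without a deviating library like saline replicate 2, and no result here rests on that run. Members were defined by their seed, but the family, the passenger arms, cluster mates and marker lists were chosen for study with earlier results of these data known. The miRNAs named are those lists and the 2 most correlated with each member. Alternatives were RLE, library total and upper quartile scaling, TMM without the 10 most abundant miRNAs, DESeq2 1.42.0 and edgeR's exact test. Further ones were filters on low counts, miRBase names only, an absolute log2 fold change of at least 1.5 as the criterion, and a replicate block. A GC correction (a per-library trend over miRNAs with at least 300 counts) and leaving out each library were also among them. Mature sequences from RefSeq matched 1089 of 1281 miRBase names. Hairpin positions were from GRCm38 (GENCODE). Same-numbered libraries had deviations correlated at -0.23, -0.28 and 0.14, so the numbers were not taken to pair them. The labels name no batch. No 2 libraries of a group agreed within sampling noise (smallest chi-square per degree of freedom 91.1).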

Additional observations from a re-analysis of the deposited data

How the results depend on the processing

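The number of family members called, 3, was 2 to 4 over all alternatives run, and the log2 fold change of their summed level, -0.92, was -1.42 to -0.47. With the replicate number as a block, which pairs libraries that share only a number, 3 members were called and mmu-miR-92b-3p was at -1.84 (edgeR adjusted p = 0.216), and over all miRNAs 179 rather than 264 were called. Without saline replicate 2, 492 were called, and without morphine replicate 1, 176. Of the passenger arms, 3 called became 1 with edgeR's exact test, filterByExpr, the replicate block, and the block with the GC correction, and 1 to 4 when a library was left out. The 5 cluster mates called became 3 with the replicate block and 2 to 7 when a library was left out. The 4 pairs of members with ratios apart became 4 to 9 when a library was left out, 9 without saline replicate 2. The 0 hairpins with arm ratios apart became 1 with a pseudocount of 1 or 0.1 and 0 to 2 when a library was left out. Among values that were not called, the log2 fold change of mmu-miR-92a-3p (-0.01) turned to 0.25 with the replicate block, 0.43 with the GC correction and 0.58 with both, and ran from -0.45 to 0.37 when a library was left out. That of mmu-miR-20a-5p (0.13) turned to -0.0081 with upper quartile factors and -0.12 with the GC correction, and ran from -0.25 to 1.67. That of mmu-miR-106b-5p (-0.01) turned to 0.074 with filterByExpr and with miRBase names only, 0.65 with the replicate block and 0.10 with block and GC correction, and ran from -0.35 to 1.47. That of mmu-miR-106b-3p (-0.31) turned to 0.50 with the GC correction and 0.56 with the block added, and ran from -0.72 to 0.057 when a library was left out. That of mmu-miR-18a-5p (-0.75) ran from -1.34 to 1.004. The causes were not tested. Scaling by library totals and by upper quartiles moved the median log2 fold change of all miRNAs from -0.15 to -0.40 and -0.35, with 104 higher and 194 lower, and 112 higher and 185 lower calls, against 132 and 132 with TMM, and the 3 called members kept their direction under both. Counts of 1 to 61 per library limit mmu-miR-32-5p and mmu-miR-363-3p in the saline group.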
